A study of Mus musculus with 6 samples.

Results

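The regions described here are the intronic young L1 regions of the mouse autosomes: ChIP-seq regions on chromosomes 1 to 19 that the deposited list annotates as intronic and centres on an L1Md_T or L1Md_A element. There were 2723 of them among 39096 regions in all, 1692 at L1Md_T and 1031 at L1Md_A. They were chosen by position and annotation, and no measured value entered the choice. The series comprises 3 libraries of chromatin immunoprecipitated for PHF13, named SPOC1 in the labels, and 3 input libraries, all from testis of C57Bl/6 mice aged 5 weeks. By the labels, the genotype is Phf13-/- in 2 immunoprecipitated libraries and 1 input, and wild type in 1 immunoprecipitated library and 2 inputs. For animal D821 the immunoprecipitate is labelled Phf13-/- and the input wild type, so the labels differ within 1 animal. The list merges the study into 1 set of regions with no value per library. Replicate error, the effect of genotype and the depth of each library are therefore unknown, and the regions are not taken as sites bound by PHF13.

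L1 elements are retrotransposons that move by copying their RNA into DNA at a new place in the genome. An intact copy carries its own promoter and encodes an RNA-binding protein and an endonuclease with reverse transcriptase, and most copies in a genome are truncated. L1Md_T and L1Md_A are among the mouse families with copies that can still move, and in male germ cells they are silenced by piRNAs, DNA methylation and histone methylation. A copy inside an intron lies within the transcription unit of its host gene, so host gene and intron can be named for each.

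Regions were compared with the windows of the RefSeq promoter table (build GRCm38.p6, which mm10 names), with 1 autosome left out of the search. Of the regions searched, 1, in an intron of Pcdh15, overlapped a window. It is shown because it is the one stretch found in this search whose bases could be read. Pcdh15 encodes a protocadherin of the tip links of inner-ear hair cells. The region (chromosome 10, 74136658 to 74137293) was centred on L1Md_T in intron 3 of 31 and had a score of 23.4. The window belongs to the predicted gene Gm40691, lies at chr10:74137168-74137467 on the minus strand, and is printed 5′ to 3′ with the 126 bases inside the region in capitals.
Gm40691 window: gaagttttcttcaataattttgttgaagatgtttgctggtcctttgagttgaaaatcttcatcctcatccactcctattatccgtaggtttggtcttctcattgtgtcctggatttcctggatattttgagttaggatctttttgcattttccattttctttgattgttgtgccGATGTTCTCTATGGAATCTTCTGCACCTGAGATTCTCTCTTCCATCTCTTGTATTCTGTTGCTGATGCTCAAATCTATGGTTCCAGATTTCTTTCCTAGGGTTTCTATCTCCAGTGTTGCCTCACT
The capital stretch was 42.1% G or C, against a median of 52.7% over all 32851 windows of the table. An exact run of 30 bases from it, on either strand, recurred in 14 other windows, which belonged to 13 genes. The stretch was thus present, at least in part, at other places in the genome, where the placement of short reads among copies is uncertain.

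The authors' score, 1 value per region with no stated unit, had a median of 24.6 in the intronic young L1 regions and ran from 4.88 to 227.9. The regions covered 3.84 Mb in all. Lengths centred on a median of 877 bp, with quartiles of 625 and 1703.5 bp; 673 of them (24.7%) were exactly 500 bp long, and the longest had 6939 bp. The score grew with length, so it was divided by length to give a score per kb, with a median of 29.3, quartiles of 25 and 33.0, and limits of 9.76 and 64.6. Scores thus ranged far more widely among the regions than scores per kb. Regions of 5000 bp or more numbered 100 and held 15.3% of the summed score, and 92 of the host genes described below held at least 1.

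**Figure D1:**
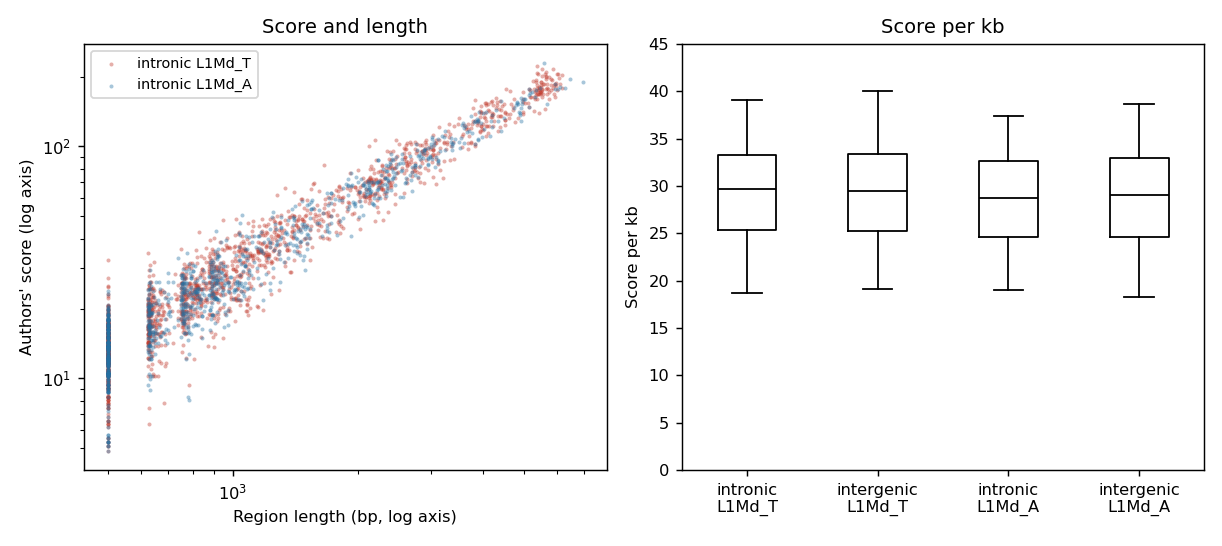
The left panel plots the authors' score against region length for each intronic L1Md_T and L1Md_A region, both on log axes; the right panel gives the score per kb of intronic and intergenic regions of both families, with boxes from the lower to the upper quartile, a line at the median and whiskers at the 5th and 95th percentiles. The score follows length closely, and the 4 medians lie between 28.7 and 29.7 per kb.

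By score per kb the intronic regions were close to the 10103 intergenic regions at the same families, the most like regions of the list. The medians were 29.3 in introns (95% interval of the median 28.9 to 29.6) and 29.4 between genes (29.2 to 29.4). The intronic median was the higher on 10 of the 19 autosomes and the lower on 9. Within L1Md_T the medians were 29.7 in introns and 29.5 between genes, and within L1Md_A 28.7 and 29.1. In regions of 5000 bp or more they were 31.7 in introns and 31.8 between genes. The regions of 1 list are not replicates, so no test was made, and intervals here and below cover counting error only.

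Intronic regions were longer than intergenic ones in this list. Their median length was 877 bp, against 776 bp between genes, and it was the longer on 17 of the 19 autosomes. Regions of exactly 500 bp made up 24.7% of the intronic set (Wilson 95% interval 23.1 to 26.4%) and 30.3% of the intergenic set (29.5 to 31.3%). Regions of 5000 bp or more made up 3.67% in introns (3.03 to 4.45%) and 2.7% between genes (2.4 to 3.04%). Within introns they made up 4.79% at L1Md_T and 1.84% at L1Md_A, and between genes 3.5% and 1.53%. The median score without division by length differed likewise, at 24.6 in introns and 22.5 between genes. L1Md_T accounted for 62.1% of the intronic regions (60.3 to 63.9%) and 59.3% of the intergenic ones (58.4 to 60.3%), with the higher share in introns on 13 of 19 autosomes.

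Young L1 regions were sparser inside genes than outside them on every autosome. Introns held 21.2% of the 12826 autosomal young L1 regions (20.5 to 21.9%), with 22.0% of L1Md_T and 20.1% of L1Md_A, and all others were annotated as intergenic. The element was read from the list's annotation, so a region that the list names otherwise could not be counted as a young L1 region. By coordinates, 2920 of their centres fell in the merged bodies of protein-coding genes, which filled 40.9% of the autosomal span. The density was 2.97 regions per Mb inside these genes and 6.98 per Mb outside, a ratio of 0.426. Over the 19 autosomes the ratio averaged 0.426 ± 0.0696 (SD, n = 19); chromosome 11 had the lowest, 0.296, and chromosome 10 the highest, 0.55. The ratio was 0.445 for L1Md_T and 0.397 for L1Md_A. For other autosomal regions of the list it was 0.411 at other LINE elements, 0.449 at LTR elements and 0.6 at simple repeats, so ratios below 1 were found in these classes as well. Assembly gaps were counted as span outside genes.

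**Figure D2:**
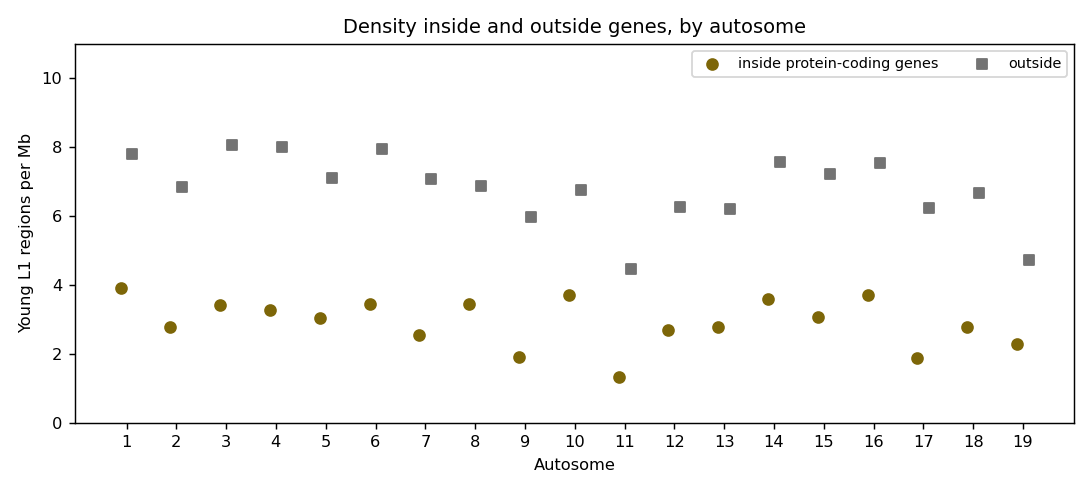
Young L1 regions per Mb (y axis) inside the merged bodies of protein-coding genes and in the rest of the span, for each of the 19 autosomes (x axis). All 19 inside values lie below the outside value of the same chromosome; chromosome 11 has the lowest pair, 1.32 inside and 4.47 outside.

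The host gene was the gene of the transcript that the annotation names, where its RefSeq body held the centre of the region. This placed 2645 of the 2723 regions in 1075 genes: 987 protein-coding genes with 2478 regions, 78 lncRNA genes with 151 regions, and 10 others. Another 55 regions were annotated to a transcript whose gene lies elsewhere, 44 of them a miRNA and 8 the major urinary protein gene Mup2, and 23 had a transcript that was not matched. The gene with the nearest transcription start was the host in only 64.9% of the placed regions, so the nearest gene of the list is not a measure of the host.

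Host genes were long. Protein-coding hosts had a median length of 192.4 kb (quartiles 83.9 and 385.5 kb), against 17.6 kb (5.99 and 45.2 kb) for all 20560 autosomal protein-coding genes, of which 4.8% were hosts (4.52 to 5.1%). Among 7278 genes under 10 kb, 3 were hosts (0.0412%). The share was 0.901% at 10 to 30 kb, 4.83% at 30 to 100 kb, 20.4% at 100 to 300 kb and 60% from 300 kb to 1 Mb. Among 55 genes of 1 Mb and over, 44 were hosts (80%, 67.6 to 88.4%).

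More length gives more room for regions, but the regions per Mb of gene were also higher in longer genes. They numbered 0.0979 per Mb in genes under 10 kb, 0.664 at 10 to 30 kb and 1.33 at 30 to 100 kb. They numbered 2.4 per Mb at 100 to 300 kb, 4.14 from 300 kb to 1 Mb and 5.5 in genes of 1 Mb and over (Poisson 95% interval 4.98 to 6.07). Genes of 300 kb and over held 54.8% of the regions in protein-coding hosts. With every young L1 region inside a RefSeq body counted, also those annotated as intergenic, genes of 1 Mb and over had 6.81 per Mb, and 94.5% of them held a region. Young L1 regions outside protein-coding genes had 6.98 per Mb.

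**Figure D3:**
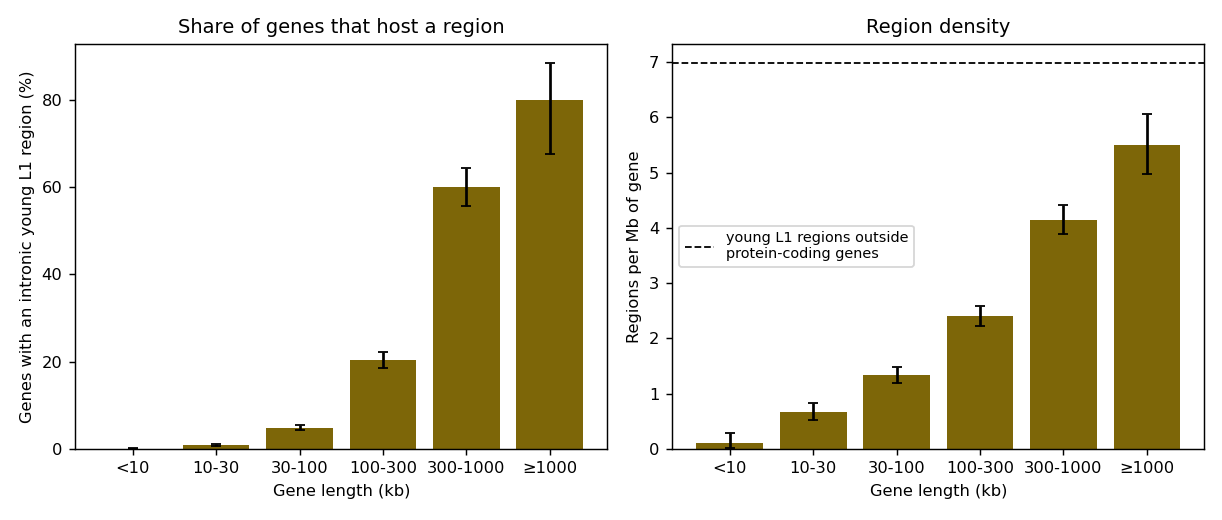
The left panel gives the share of autosomal protein-coding genes with an intronic young L1 region in 6 classes of gene length, with Wilson 95% intervals; the right panel gives regions per Mb of gene with Poisson 95% intervals, and the dashed line marks young L1 regions per Mb outside these genes. The share goes from 0.0412% to 80% and the density from 0.0979 to 5.5 per Mb, with the line at 6.98. The bars count intronic regions only, and the line counts young L1 regions of any annotation. With every young L1 region inside a gene body counted, the density goes from 0.131 to 6.81 per Mb.

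Regions were concentrated in a minority of hosts. Of the 1075 host genes, 498 held 1 region and 577 held more (53.7%, 50.7 to 56.6%). The 309 genes with 3 or more regions held 60.9% of the placed regions, and the 35 genes with 10 or more held 17.4%. Of the 577 genes with more than 1 region, 226 had both families, 241 had L1Md_T alone and 110 L1Md_A alone. In 304 of them all regions had the same intron number.

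Many neighbouring regions of a gene were close together. Of 1570 gaps between neighbours in a gene, 53.1% were under 10 kb, with a median of 4.78 kb and a smallest value of 500 bp. Joining neighbours under 10 kb apart left 1811 groups, of which 34.8% had several regions, and 30.3% of the hosts (27.7 to 33.1%) had more than 1 group. Of the groups, 39 held both families. Whether the regions of a group lie on 1 element was not tested, so a count of regions is not a count of L1 copies.

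The 10 genes with the most regions held 182 of them, and all but Itgbl1 were longer than 1 Mb. Agbl4, a carboxypeptidase that trims glutamates from tubulin, had 24 regions in 13 groups (chromosome 4, gene body 110397649 to 111664324). They lay at 8 L1Md_T and 16 L1Md_A elements, and their scores ran from 9.77 to 93.4 with a median of 21.9. None of the 24 reached 5000 bp, and 10 of them lay in intron 5 of 12, between 773 and 850.9 kb from the gene start. Agbl4 thus had the most regions and no region among the highest scores.

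Ctnna3, which encodes the adhesion adaptor alpha-T-catenin, had 22 regions in 11 groups, 15 at L1Md_T and 7 at L1Md_A. Their scores had a median of 29.8 and ran from 11.9 to 161.8, and intron 5 of 17 held 10 of them. The highest was an L1Md_A region of 4917 bp (chromosome 10, 63774321 to 63779238). Ptprd, a receptor tyrosine phosphatase that organises synapses, had 20 regions with scores from 9.34 to 125.3 and a median of 21.2, 8 of them in the first intron. All 8 L1Md_A regions of Ptprd lay in intron 1, 13 or 20, and no L1Md_T region lay beyond intron 9.

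Fhit, a tumour suppressor in people that spans a fragile site, had 19 regions, 15 of them at L1Md_T, with scores from 9.13 to 190.3 and a median of 19.1. Its 2 longest lay in intron 4 of 8, next to each other (chromosome 14, 10101862 to 10107354, score 190.3, and 10112802 to 10118395, score 185.0). Csmd1, which encodes a transmembrane regulator of complement, also had 19, with scores from 9.13 to 173.3, a median of 25.7, and 9 regions at L1Md_T. Fhit and Csmd1 thus had like numbers and ranges and unlike shares of the families.

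Cntnap2, a neurexin-family protein that clusters potassium channels on axons, had 18 regions, 12 of them at L1Md_A, with scores from 8.07 to 186.2 and a median of 26.6. Lrp1b, of the LDL receptor family, had 18, 13 of them at L1Md_T, with scores from 10.2 to 140.6 and a median of 16.5. Its 18 regions fell into 14 groups, the most of any host. Galntl6, of the GalNAc transferase family, had 15 regions with a median score of 22.5, and 13 of these lay in intron 4 of 11. Gpc5, a glypican, had 14 with a median of 22.3, of which 10 lay in intron 7 of 7.

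Itgbl1, which encodes a secreted protein related to integrin beta chains, was the exception in length. It had 13 regions in 318.9 kb, or 4.08 per 100 kb, against 0.803 to 1.89 per 100 kb in the other 9 genes. Of the 13, 11 lay in intron 2 of 10. They included the region with the highest score of all placed regions, an L1Md_A region (chromosome 14, 123786939 to 123792533, score 227.9), and the longest, also at L1Md_A in intron 7 (123874011 to 123880950, score 189.9).

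**Figure D4:**
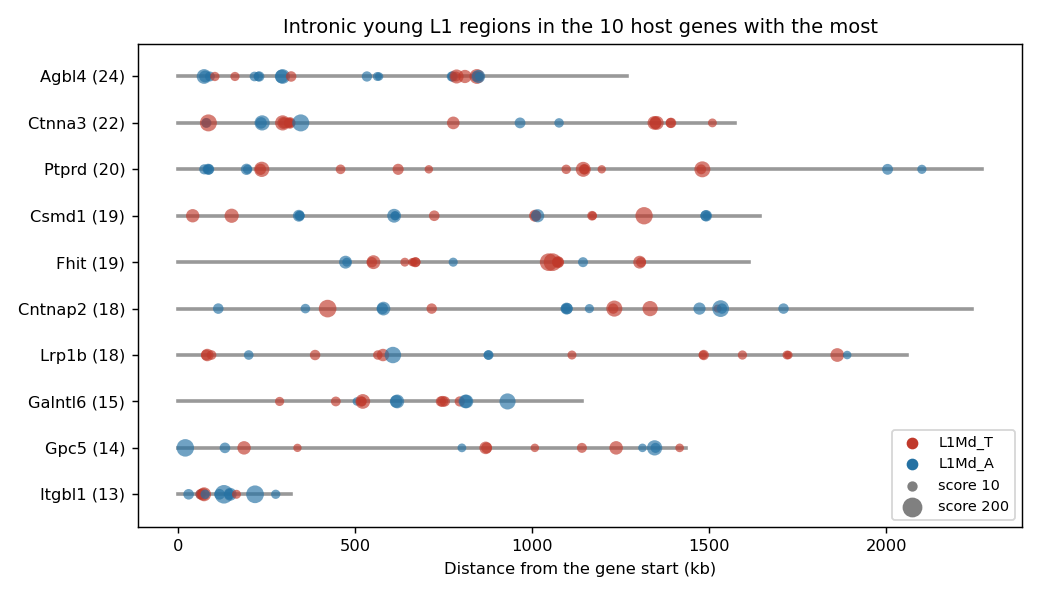
Each grey line is 1 of the 10 host genes with the most regions, drawn from the gene start at 0 kb to its end; circles mark the centres of the regions, coloured by family, with area growing with the square root of the authors' score, and the number of regions stands beside the gene name. Circles gather in groups, as in Agbl4 between 773 and 850.9 kb, and Itgbl1 holds 13 regions in 318.9 kb.

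After Itgbl1, the highest scores belonged to 7 hosts with 1 to 7 regions each, and these top regions were all at L1Md_T and at least 5372 bp long. Spock3, which encodes a testican proteoglycan, had a region of score 222.1 (chromosome 8, 63069102 to 63074485, intron 3 of 11). Focad followed with 215.5 (chromosome 4, 88361170 to 88367039, intron 33 of 43), and 4921539E11Rik with 214.7 (chromosome 4, 103273944 to 103279489, intron 1 of 7). Nckap5 had 209.8 (chromosome 1, 126664150 to 126669803, intron 2 of 16). The GABA-A receptor subunit gene Gabrb1 had 206.8 (chromosome 5, 71979311 to 71984683, intron 4 of 8). Pdia5, a protein disulfide isomerase, had 206.0 (chromosome 16, 35442806 to 35448206, intron 7 of 16). Abca12, a lipid transporter of the epidermis, had 205.6 (chromosome 1, 71250741 to 71256741, intron 48 of 52). For 4921539E11Rik, Pdia5 and Abca12 this was the 1 region of the gene.

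The highest scores per kb came from short regions instead. Cadps2, which acts in the release of dense-core vesicles, had 64.6 per kb over 500 bp (chromosome 6, 23512475 to 23512975, intron 7 of 28). Ccdc77 had 55.4 over 625 bp, and Gab2, a signalling adaptor, had 54.4 over 500 bp. A region of 830 bp in Itgbl1 had 51.7, one in Adam22, a neuronal receptor, had 50.8, and one in the adhesion receptor gene Adgrb3 had 50.2. All 6 were at L1Md_T. The lowest, 9.76 per kb over 500 bp, was shared by an L1Md_A region in the predicted lncRNA gene Gm20750 (chromosome 3, 52916509 to 52917009) and an L1Md_T region in the transcription factor gene Sox6 (chromosome 7, 115589294 to 115589794). Short regions thus held both ends of the range.

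Among hosts with 3 or more regions, the densest were short genes with exactly 3. The densest was the predicted gene Gm14548, with 21.5 regions per 100 kb and all 3 in intron 8 of 9. It was followed by Gm20750, 4930486L24Rik, Gm19784, Yipf7 and Poli, which encodes the translesion DNA polymerase iota, with 11.4 per 100 kb. In each of the 6 genes all 3 regions were at the same family and in 1 intron. They lay under 10 kb from their neighbours, so each gene held 1 group by the joining rule above. Whether the 3 regions lie on 1 element was not tested, so these densities are not densities of L1 copies. The scores in Gm14548 were 34.2, 67.1 and 26.8, in Yipf7 13.8, 18.9 and 21.9, and in Poli 19.5, 14.4 and 19.7. Those in 4930486L24Rik were 31.9, 23.1 and 78.6, in Gm19784 64.1, 29.5 and 21.0, and in Gm20750 22.3, 4.88 and 5.31. The median score of the gene was above the 24.6 of all intronic regions in Gm14548, 4930486L24Rik and Gm19784 and below it in Gm20750, Yipf7 and Poli. The shortest protein-coding hosts were the cystatin gene Cst10 (score 18.5), the olfactory receptor gene Olfr1223 (5.1) and the relaxin-family hormone gene Insl5 (23.6), each with 1 L1Md_T region.

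Regions were spread over early and late introns. The first intron of the annotated transcript held 598 regions (22.0%, 20.4 to 23.6%), the second 15.8% and the third 12.1%, while intron 10 or later held 20.4%. The last intron held 285 (10.5%). The annotated transcripts had a median of 12 introns, and an even spread over their introns would put 12.8% in the first. Lengths of introns were not analysed here. The highest intron number was 80 of 84.

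Among the 1655 autosomal intronic regions at other elements the first intron held 25.3% (23.3 to 27.5%), with 23.5% at other LINE, 25.2% at LTR elements and 26.8% at simple repeats. Young L1 regions in first and later introns had close scores and lengths. The median score per kb was 29.1 in the first intron (28.4 to 29.8) and 29.3 in later ones (28.9 to 29.7), and the median lengths were 883 and 867 bp. L1Md_T made up 65.4% of the regions in the first intron and 61.2% in later ones.

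Along the RefSeq gene body, the regions annotated as intronic were fewer near both ends. Young L1 regions inside a body that the list annotates as intergenic were not counted here. Whether those lie near the ends, and so account for the lower shares, was not tested. The gene strand was known for 96.9% of the placed regions. The first 20% of the gene held 15.5% of them (14.2 to 17.0%) and the last 20% held 17.2% (15.8 to 18.7%), against 22.8, 22.3 and 22.2% in the parts between. In genes of 300 kb and over the first 20% held 17.3% of the regions (15.3 to 19.4%), and in shorter genes 13.6% (11.8 to 15.7%). The median distance to the gene start was 123.9 kb (quartiles 48.1 and 325.2 kb). Within 10 kb of the start lay 98 regions (3.82%), and 22 of these lay within 5 kb. The median score per kb was between 28.9 and 29.8 in all 5 parts.

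**Figure D5:**
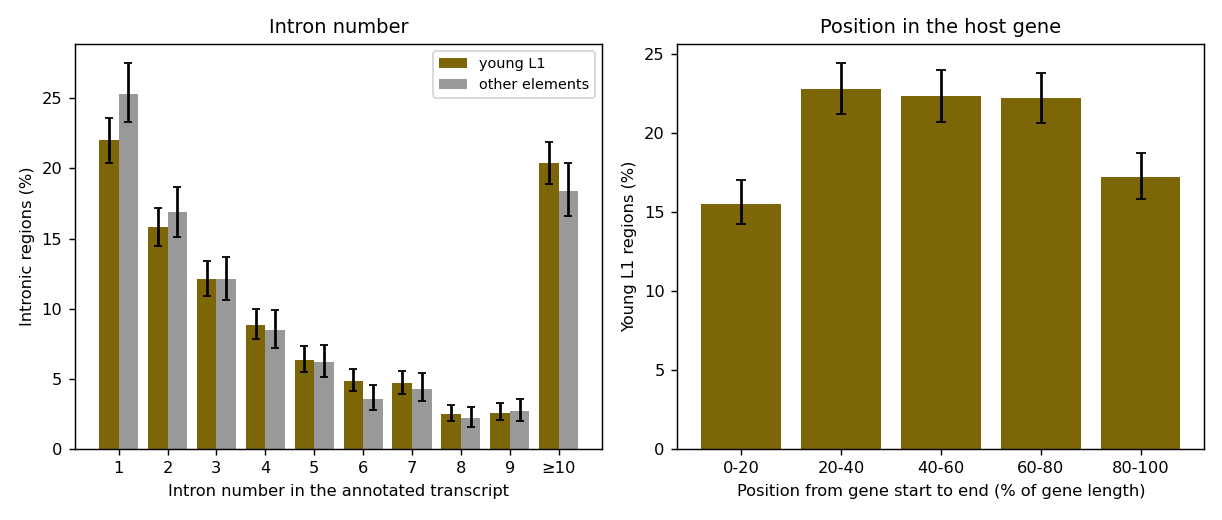
The left panel gives the share of autosomal intronic regions by intron number in the annotated transcript, for young L1 regions and for regions at other elements; the right panel gives young L1 regions by position along the host gene. Error bars are Wilson 95% intervals. The first intron holds 22.0% of young L1 regions and 25.3% of the others, and the first and last 20% of the gene hold 15.5 and 17.2%.

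The 3 regions nearest a gene start lay in first introns at 500 bp each; these genes were picked for that distance. They belonged to Gm3411 (1.04 kb, score 10.6), the lncRNA gene 4933412O06Rik (1.4 kb, 8.28) and Dhcr7, the enzyme of the last step of cholesterol synthesis (1.67 kb, 13.2). Intronic regions of exactly 500 bp had a median score of 13.2 with quartiles of 11 and 15.3, so Dhcr7 was at the median of its length and the other two were below the lower quartile.

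The hosts were then counted in 26 lists of genes. For each list the number of hosts is given beside the number that its members' length classes alone would give at the shares of all genes, and no set test was made. Of the 26 lists, 15 had a share of hosts above the overall 4.8% and 11 had a share at or below it.

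Lists of synaptic, guidance and ion channel genes, phosphodiesterases and cadherins all had a share of hosts above that of all genes. In each of these lists, the share that length alone would give lay inside the Wilson 95% interval of the share of hosts. Of 56 synaptic adhesion and organiser genes, 24 were hosts (42.9%, 30.8 to 55.9%), against 23.2 from length (41.5%). Besides Ptprd and Cntnap2, Cadm2 had 10 regions with a median score of 17.5, and Dlg2, a synaptic scaffold, had 10 with 18.7. Of 68 axon guidance genes, 12 were hosts (17.6%, 10.4 to 28.4%), against 14.3 from length (21.0%), with 12 regions in the ephrin receptor gene Epha6, 5 in the netrin receptor gene Unc5d and 3 each in Epha3 and Sema3c. Of 26 voltage-gated calcium and sodium channel genes 8 were hosts (6.91 from length), with 3 regions each in Cacna2d1, Cacna1e and Scn7a and 2 in Cacna2d3. Of 22 phosphodiesterases 5 were hosts (5.83), with 7 regions in Pde1c, 5 in Pde4d and 2 each in Pde7b and Pde3a.

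Of 17 ionotropic glutamate receptors 8 were hosts (47.1%, 26.2 to 69.0%), against 6.33 from length (37.2%), with 11 regions in Grid1 and 7 each in Grik1 and Grik2. The median score was 42.7 in Grid1, 36.5 in Grik1 and 19.7 in Grik2. Of 16 GABA-A receptor subunits 4 were hosts (2.38): Gabrg3 with 10 regions, Gabrb1 with 4, and Gabrg1 and Gabrb2 with 1 each. The Gabrg1 region scored 177.1 and the Gabrb2 region 6.58. Of 23 cadherins 10 were hosts (43.5%, 25.6 to 63.2%), against 5.95 from length (25.9%), with 8 regions in Cdh12, 3 each in Cdh18 and Cdh26, and 2 in Cdh20. Of 39 voltage-gated potassium channels 9 were hosts (6.0), with 3 regions each in Kcnd2 and Kcnh7 and 2 each in Kcnh1 and Kcnh5.

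Of 18 genes at common fragile sites, very long genes that break under replication stress, 16 were hosts (88.9%, 67.2 to 96.9%). Length would give 13.0 (72.2%), a share inside that interval. The shares by length come from all genes, the list's own among them, and only 55 genes reach 1 Mb. The share from length is therefore not independent of the list. The list held 172 regions or 7.08 per Mb, against 5.5 per Mb in all protein-coding genes of 1 Mb and over. Those genes include members of the list. Of the other lists, that of spermiogenesis had more, 7.83 per Mb, and ionotropic glutamate receptors had 6.83, with fewer in the rest. Ctnna3, Fhit, Csmd1 and Cntnap2 led the fragile site list, and 5 of its genes are also in another list. Naaladl2 and Rora were the pair without an intronic region. By coordinates the RefSeq body of Naaladl2 held 14 young L1 regions, which the list annotates as intergenic.

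Of 42 spermiogenesis genes 4 were hosts (9.52%, 3.77 to 22.1%), against 2.66 from length (6.33%), with 21 regions in all. Spag16, of the sperm axoneme, had 10 regions with scores from 14.4 to 152.1 and a median of 33.2, and Spata16, of the acrosome, had 7 with a median of 19.3. Zpbp, which binds the zona pellucida, and the axoneme gene Cfap43 had 2 each. Of 37 meiotic prophase genes 4 were hosts (10.8%, 4.29 to 24.7%), against 1.76 from length (4.76%), with 6 regions in all. In this list and that of spermiogenesis, the share from length lay inside the interval. Mei4, needed for meiotic DNA breaks, and Sycp1, of the synaptonemal complex, had 2 regions each, and Smc1b and Spata22 had 1 each. The Smc1b region, in a gene for a meiotic cohesin, scored 146.7 and the Spata22 region 17.4.

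Some genes that act in silencing L1 were hosts. Of 39 piRNA pathway and L1 silencing genes 4 were hosts (10.3%, 4.06 to 23.6%), against 1.93 from length (4.95%), with 11 regions in all. The share from length lay inside the interval. Morc1, which represses transposons in the mouse male germ line, had 5 regions with scores from 12.7 to 128.5 and a median of 39.7. Gtsf1, needed for piRNA-directed silencing, had 2, with scores of 25.9 and 126.1 in a gene of 28.0 kb. The RNA helicase gene Tdrd9 had 2 (12.3 and 51.4), and the piRNA factor gene Asz1 had 2 (15.3 and 16.4).

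Of 57 DNA damage response and repair genes 6 were hosts (10.5%, 4.91 to 21.1%), against 3.32 from length (5.82%). They were led by the end-joining gene Xrcc4 with 5 regions and a median score of 66.0. Bard1 and Prkdc had 2 each, and Fancl had 1. Of 20 Phf genes, the family by name of the immunoprecipitated protein, 2 were hosts (0.967 from length): Phf3 with scores of 26.5 and 48.0, and Phf14 with 1 region of 93.4. Phf13 had none. Among 16 Sertoli cell markers only Fshr, the receptor of follicle-stimulating hormone, was a host (6.25%, 1.11 to 28.3%), against 0.388 from length (2.43%). The scores in Fshr were 11.9 and 21.0. In the repair, Phf and Sertoli lists the share from length lay inside the interval.

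Large families gave mixed counts. Of 349 vomeronasal receptors 14 were hosts (4.01%, 2.4 to 6.62%), against 2.89 from length (0.828%), a share below the interval. Vmn2r58, Vmn2r27 and Vmn2r55 had 2 regions each and Vmn2r48 had 1. Vomeronasal receptor genes are similar copies, where reads can be placed with doubt. Whether this bears on the count was not tested. Of 324 solute carriers 15 were hosts (16.8 from length), with 5 regions in Slc22a22 and 4 each in Slc8a1, Slc9a9 and Slc15a5. Of 388 Zfp genes 10 were hosts (12.3), with 4 regions in Zfp804b, 2 each in Zfp385b and Zfp697, and a single one of score 195.4 in Zfp442.

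No host was found in 8 lists: 77 ribosomal protein genes, 20 genes of undifferentiated and 14 of differentiating spermatogonia, 24 of H3K9 methylation and heterochromatin, 20 of H3K4 methylation, 30 of Polycomb, 16 Leydig cell markers and 39 Hox genes. As 3 counts of the total, a count of 0 allows a share of up to 3.9% in the ribosomal protein list and up to 21.4% in that of differentiating spermatogonia, with the other 6 lists between. For ribosomal protein genes, with a median length of 3.18 kb, length would give 0.0403 hosts. It would give 0.672 for undifferentiated and 0.275 for differentiating spermatogonia. For H3K9 methylation and heterochromatin it would give 1.29, for H3K4 methylation 1.3 and for Polycomb 1.26. Leydig cell markers would have 0.25 and Hox genes 0.185. Over the 238 genes of the 8 lists together, length would give 5.22 hosts. These lists were put together because each had 0, so the joint 0 was fixed in advance and is no measure of depletion.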

How the data were processed

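Bowtie2 2.2.2, SAMtools and HOMER 4.6 are named, without roles, in the submitters' processing notes, with mouse build mm10. A single file of regions was deposited, annotated with HOMER against mm10 per the file headers. Not given in the sources used here are its peak settings, control and source libraries. The deposited score is the authors' value per region, in no stated unit, and the list has 0 columns per library. Start, end, length and distance to the transcription start were used as deposited, in bp, and the annotation gave the transcript and intron number.

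Transcripts were matched by accession to the RefSeq table of GRCm38.p6, and 24 regions by gene name. Host bodies had to hold the region's centre. Strand came from the RefSeq promoter table or from the signed distances, which gave the same strand for 96.5% of 4408 genes known from both. Shares have Wilson intervals and densities Poisson intervals, all 95%, for counting error only. With no replicates, no test was made. The genes named are the 10 with the most regions, the 8 and 6 with the highest score and score per kb, the 6 densest with 3 or more regions, up to 4 hosts in each list, the 3 shortest hosts, the 3 longest genes with no region and the 2 lowest regions; genes outside this rule were chosen after their values were seen. A gene that the rule names is not reported here. The members and the gene lists were chosen with earlier results of these data known. Scripts were tested on simulated data. The software was SciPy 1.17.1, NumPy 2.4.6, matplotlib 3.10.9 and pandas 2.3.3 under Python 3.11.15.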

Additional observations from a re-analysis of the deposited data

How the results depend on the processing

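Of 30 alternative values, 20 moved by less than the interval, the SD over autosomes or the 1.5-fold bound set for them, and 10 moved by more. The number of regions was 1692 with L1Md_T only, 1031 with L1Md_A only and 1686 in the 50% of the autosomal regions with the higher score, each fewer by construction. The share in the first intron was 18.4% in transcripts with at least 5 introns. The share of hosts with more than 1 region was 50% with L1Md_T only, 46.6% with L1Md_A only, 49.0% with regions over 500 bp only, 45.4% in the 50% with the higher score and 30.3% with neighbours under 10 kb joined; the last follows from joining. The log2 ratio of intronic to intergenic medians was -0.0047 by score per kb and 0.13 by score, and intronic regions were the longer ones. The density inside over outside genes was 0.397 to 0.466 in its alternatives. Regions per Mb in genes of 1 Mb and over were 4.14 times those at 30 to 100 kb, and 3.71 to 4.07 times in alternatives chosen after seeing the data. Host lengths against genes with an intron were not run, since the table used gives no introns. No paired analysis was possible because values per library do not exist in the list, and leaving out replicates was not run for the same reason. With the depth unknown, what it limits could not be given.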

Other observations

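The longest protein-coding genes with no intronic region by the annotated transcript were Naaladl2 (chromosome 3, 1346.0 kb), Lrrc4c (chromosome 2, 1313.5 kb) and Tenm3 (chromosome 8, 1297.2 kb). By coordinates their RefSeq bodies held 14, 15 and 3 young L1 regions, all of which the deposited list annotates as intergenic. The list and the RefSeq table thus place these genes' limits differently, and the host counts follow the list.

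On chromosome X, 266 young L1 regions were intronic, 59.4% of them at L1Md_T (95% Wilson interval 53.4 to 65.1%). Their median score per kb was 28.2 (27.5 to 29.1) and their median length 859.5 bp. The first intron held 26.7% of them.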
